A study of Mus musculus with 8 samples.

Results

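Transcripts of 31 genes that hepatocytes express, 25 coding for secreted plasma proteins and 6 for intracellular proteins, were followed in RNA from sorted macrophages of mouse liver metastases. The 31 genes were taken by symbol from 42649 genes in the deposited table, as liver products that had been found in these macrophage libraries, and a symbol was matched whatever its value. The mice were C57BL/6, and all carried MC38 cells, a mouse colon carcinoma line, injected into the spleen so that they seed the liver. The control diet (CD) supplied 10% of energy as fat and the high-fat diet (HFD) 60%, each for 6 weeks before the injection. Metastases were collected on day 19, and cells positive for CD45, CD11b and F4/80 were sorted as tumour-associated macrophages, giving 4 libraries per diet. The labels give neither the age of the mice nor a genetic change, and no library of hepatocytes was analysed here. The comparison asks whether liver transcripts in the macrophage gate differed with the diet, and whether transcripts of secreted and of intracellular products did so alike.

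Hepatocytes make most plasma proteins, which they secrete in bulk, and they also hold large amounts of enzymes for amino acid, fatty acid and drug metabolism that stay in the cell. Carriers such as albumin move hormones, vitamins and lipids in the blood, apolipoproteins build lipoprotein particles, and serpins and inter-alpha-trypsin inhibitors hold plasma proteases in check. Many of these genes are driven in liver by the transcription factors HNF4 and C/EBP, among others, and macrophages are not known as a main source of these plasma proteins.

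The Serpina1 genes, which code for the mouse forms of alpha-1-antitrypsin, are near copies of each other, and their promoters are shown because all 5 copies were lower in HFD libraries by the values given further on. The windows are on chromosome 12 of GRCm38.p6, minus strand, from the RefSeq promoter set, 5′ to 3′. The capitals mark the 9 bases at positions 27 to 35 of each window, counted from 1 at its 5′ end, which were set against the HNF4 motif CAAAGTCCA.
Serpina1a, chr12:103863628-103863715: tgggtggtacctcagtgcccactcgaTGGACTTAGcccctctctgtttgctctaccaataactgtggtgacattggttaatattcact
Serpina1b, chr12:103738203-103738290: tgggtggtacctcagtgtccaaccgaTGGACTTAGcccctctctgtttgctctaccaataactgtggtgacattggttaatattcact
Serpina1c, chr12:103904965-103905052: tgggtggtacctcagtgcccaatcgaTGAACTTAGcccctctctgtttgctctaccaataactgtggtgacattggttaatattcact
Serpina1d, chr12:103773637-103773724: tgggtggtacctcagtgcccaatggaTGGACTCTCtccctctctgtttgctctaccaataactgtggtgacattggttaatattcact
Serpina1e, chr12:103956963-103957050: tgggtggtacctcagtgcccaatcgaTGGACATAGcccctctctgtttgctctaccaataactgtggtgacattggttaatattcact

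Over these 88 bases any 2 copies were 92.0% to 97.7% identical. The marked 9 bases varied. In Serpina1a and Serpina1b they matched the reverse complement of the HNF4 motif CAAAGTCCA with 1 mismatch, and in Serpina1c, Serpina1d and Serpina1e they had 2 mismatches to it. For comparison, the window of Cyp3a11, a drug-metabolising cytochrome P450, is shown with its HNF4 match in capitals (0 mismatches, minus strand).
Cyp3a11, chr5:145879935-145879993: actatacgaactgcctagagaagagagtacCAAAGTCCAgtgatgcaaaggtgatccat

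In the 250 bases before the annotated start, on either strand and with up to 1 mismatch, 7 of the 25 members with a promoter in the set held an HNF4 match, against 7.05% of 32851 promoters. Without the Serpina1 genes it was 5 of 20. A member counted if any of its annotated starts matched (27 starts for the 25 members), whereas the shares of all promoters are per promoter. The HNF4 match of Apoa2 was at its start number 2 and not at number 1. The pattern TTGCNNCAA, used for C/EBP, was found in 0 of 25 (1.74% of all promoters) and the TATA box TATAAA in 7 of 25 (12.4%), both with no mismatch. The C/EBP pattern sets 2 bases between TTGC and CAA, so a site with TTGC directly followed by GCAA cannot match it. Such sites, and other spacings between TTGC and CAA or between TTGC and GCAA, were not searched. The 0 of 25 and the 1.74% therefore describe this pattern only, and the 0 does not show that C/EBP sites are absent. HNF4 and TATA box matches did not overlap each other in the members' promoters, and a match of letters is not evidence of binding.

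The libraries held 37180157 to 55717378 counted reads, and the 31 members together made up 0.0107% to 0.0114% of them in CD and 0.00568% to 0.00837% in HFD. Genes of the sort were present in every library, with Ptprc (CD45) at 45.6 to 163 counts scaled to library depth (CPM), Itgam (CD11b) at 40.3 to 142 and Adgre1 (F4/80) at 93.4 to 682. CD replicates 3 and 4 differed from all other libraries in content. Their summed level of 12 neutrophil genes was 104625 and 106714 CPM, against 386 to 6897 elsewhere. They had counts in 1171 and 1111 of 1489 genes of normally silent families, against 132 to 380 in the others. The libraries are from bulk RNA, so fewer cells of a type and less RNA per cell cannot be told apart in any value below. No molecular identifiers were used, and the labels do not say whether the replicates were prepared in batches.

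The hepatocyte label was set against the transcription factors that maintain this cell type. Of 12 hepatocyte transcription factors, 2 had enough reads to be tested, and each had between 4 and 130 counts over all 8 libraries. Hnf4a, the nuclear receptor that maintains the hepatocyte programme, had 13 and 6 counts in CD replicates 3 and 4, 4 in HFD replicate 3 and 0 in the other 5 libraries. Foxa3 had the most counts of these factors, 130 in all and 55 of them in HFD replicate 1, where Orm1 had 52. With Alb itself at only 3.85 to 20.7 CPM, scarcer transcripts of the same cells could go unread, so these counts cannot decide the label. The set is described here by its genes, and no cell in the sort is named from it.

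By level per transcript length (FPKM), the apolipoproteins Apoa2 and Apoa1 led the members, while Apoc3, Apoh and Apob had means of 0.870, 0.429 and 0.105. The mean over the 8 libraries was 17.0 FPKM for Apoa2 and 7.03 for Apoa1, proteins of high-density lipoprotein, 3.85 for Alb, 3.20 for Ahsg (fetuin-A) and 3.20 for Ttr (transthyretin, a carrier of thyroid hormone). Of the 31 members 15 had a mean of at least 1 FPKM, 14 of them secreted. The 1 intracellular gene among them was Fabp1, the fatty acid binding protein of liver, at 1.92. The other 5 intracellular members, the enzymes Cyp2e1, Cyp3a11, Cyp2c29, Hpd and Tat, were at or under 0.289 FPKM in every library.

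Of the 31 members 29 passed the filter on low counts and were tested among 17367 genes with edgeR, and none passed at an adjusted p of 0.05. The background share is small too, since edgeR called 0.00576% of all genes lower in HFD (1 gene, Ass1) and 0% higher. With no adjustment, p was under 0.05 for 15 members lower and 0 higher in HFD, 51.7% of those tested, against 7.56% of all genes lower and 5.31% higher. DESeq2 on the same genes called 12 members lower and 0 higher, against 2.86% and 0.823% of all genes. The log2 fold change, HFD minus CD, was below 0 in 26 of 29 members and in 49.2% of all genes. Its median was -1.16 for the members and 0.01 for all genes, whose quartiles were -0.54 and 0.41. Scaled by the trimmed mean of M-values (TMM), all 4 HFD libraries lay below all 4 CD libraries for 14 members, against 4.8% of all genes, and above them for 0 members (3.57%).

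**Figure D1:**
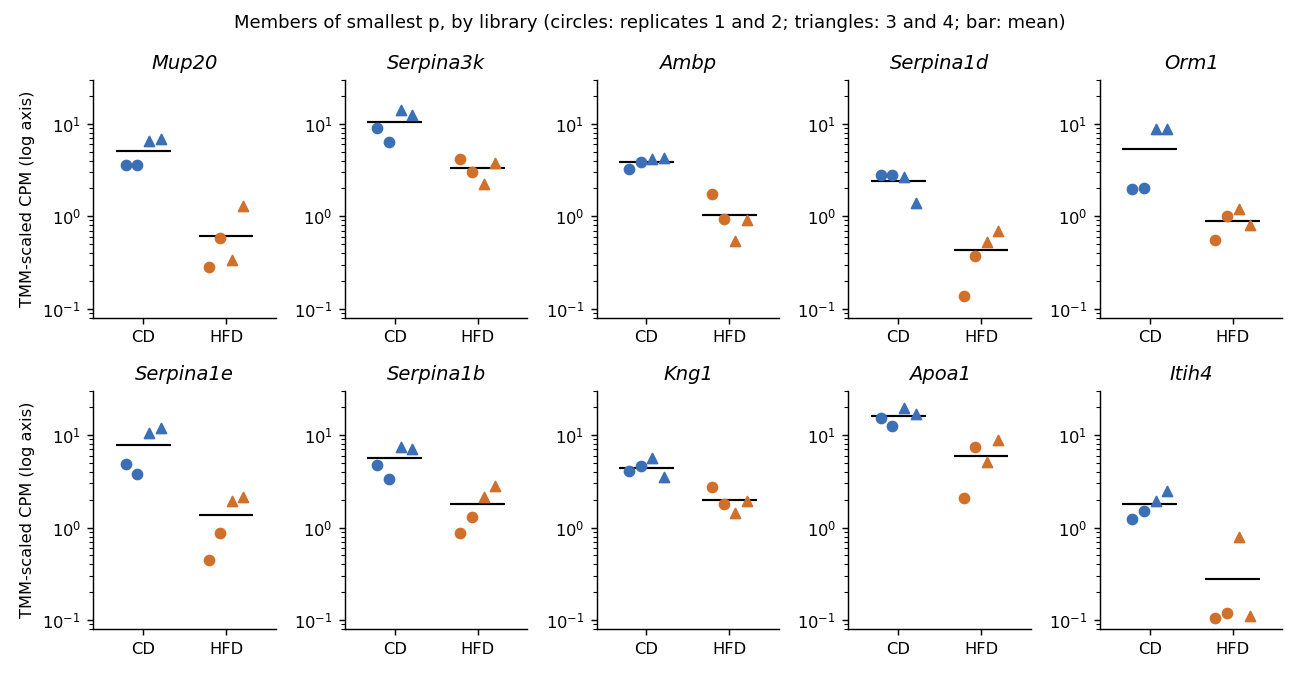
TMM-scaled CPM on a log axis of the 10 members of smallest p, 1 panel per gene and 1 point per library, with circles for replicates 1 and 2, triangles for replicates 3 and 4 and a bar at the mean of each diet. In each panel all HFD points lie below all CD points, from 0.285 to 1.27 against 3.56 to 6.84 for Mup20 and from 1.45 to 2.77 against 3.53 to 5.61 for Kng1.

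Among the 8 carrier proteins, Mup20 and Orm1 had the lowest log2 fold changes, while albumin itself overlapped between the diets. Mup20 codes for darcin, a major urinary protein that liver secretes and males pass in urine as a pheromone. It was at 3.56, 3.57, 6.57 and 6.84 CPM in CD replicates 1 to 4 and at 0.285, 0.580, 0.332 and 1.27 in HFD replicates 1 to 4. The highest HFD library was below the lowest CD library, and the means were 5.14 ± 1.82 and 0.618 ± 0.457 CPM (SD, n = 4 each). The log2 fold change was -3.07 ± 0.53 (SE), with an adjusted p of 0.212 in edgeR. Behind it were 188 to 208 counts per CD library and 14 to 46 per HFD library.

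Orm1, orosomucoid, is an acute-phase protein that binds drugs and lipids in plasma. Its level was 1.98, 2.01, 8.76 and 8.70 CPM in CD and 0.548, 0.997, 1.21 and 0.804 in HFD. All HFD libraries were lower, and CD replicates 3 and 4, the libraries with the high neutrophil sums, were far above CD replicates 1 and 2. The part of that difference in the Orm1 values was not tested. The log2 fold change was -2.59 ± 0.58 (edgeR, adjusted p = 0.231). The 3 Orm genes together were at 2.27 to 10.99 CPM in CD and 0.601 to 1.21 in HFD, and the 12 Mup genes together at 3.85 to 10.4 and 0.285 to 2.58. Copies within a family can share reads. Orm1 held 108 of 124 Orm counts in CD replicate 1 and 52 of 57 in HFD replicate 1. Mup20 held 194 of 243 and 27 of 27 Mup counts there, but 14 of 56 in HFD replicate 3 and 46 of 93 in HFD replicate 4. The Orm sum therefore largely repeats Orm1. The Mup sum repeats Mup20 in part, and less so in HFD replicates 3 and 4. Neither sum is separate evidence.

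Alb was at 6.75, 6.36, 20.7 and 20.05 CPM in CD and 3.85, 5.92, 13.1 and 18.01 in HFD. The replicate number divided these values more than the diet did: replicates 1 and 2 lay between 3.85 and 6.75 in both diets, and replicates 3 and 4 between 13.1 and 20.7. Its log2 fold change was -0.40 ± 0.56 (edgeR, adjusted p = 0.783). The other carriers overlapped between the diets. Ttr had a log2 fold change of -0.83 ± 0.49, Gc (vitamin D binding protein) -1.06 ± 0.53, Mup3 -1.77 ± 1.41 and Azgp1 (zinc-alpha-2-glycoprotein) -1.06 ± 1.13. Rbp4, the plasma carrier of retinol, was the 1 carrier above 0, at 0.17 ± 0.47. Its highest library was HFD replicate 1 with 4.61 CPM, against 0.997 to 2.11 in the other HFD libraries and 1.71 to 2.44 in CD.

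The 5 apolipoproteins divided, although Apoa1 and Apoa2 sit in the same particle. Apoa1 was at 15.5, 12.6, 19.8 and 16.7 CPM in CD and 2.10, 7.47, 5.17 and 8.87 in HFD. All HFD libraries were lower, and the log2 fold change was -1.46 ± 0.40 (edgeR, adjusted p = 0.259). Apoa2 was at 12.2, 14.8, 9.96 and 8.04 CPM in CD and 8.14, 9.42, 6.57 and 13.2 in HFD. These ranges overlapped almost whole, and the log2 fold change was -0.27 ± 0.30 (edgeR, adjusted p = 0.714). The difference between the 2 genes was not itself tested. Apob, the backbone of very low density lipoprotein, had -1.14 ± 0.50 and overlapped between the diets. So did Apoc3, an inhibitor of lipoprotein lipase (-0.37 ± 0.46), and Apoh (-1.77 ± 1.03). The annotated span of Apoh overlaps that of Prkca, and whether their exons share bases was not examined.

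The 12 protease inhibitors and kininogen had a median log2 fold change of -1.60. In edgeR 10 of 12 were lower with an unadjusted p under 0.05, beside 7.56% of all genes, and so were 2 of 8 carriers and 2 of 5 apolipoproteins. The difference between the roles was not tested, and 5 of the 10 are Serpina1 copies that can share reads. Serpina1e was at 4.82, 3.76, 10.6 and 11.9 CPM in CD and 0.443, 0.878, 1.95 and 2.16 in HFD. Its log2 fold change was -2.53 ± 0.57 (edgeR, adjusted p = 0.232). Serpina1d was at 2.77, 2.78, 2.66 and 1.38 CPM in CD and 0.137, 0.372, 0.522 and 0.693 in HFD. Both genes had every HFD library below every CD library. The log2 fold change of Serpina1d was -2.50 ± 0.54 (edgeR, adjusted p = 0.219). Serpina1b was at 4.75, 3.35, 7.53 and 7.13 CPM in CD and 0.864, 1.29, 2.14 and 2.83 in HFD, again without overlap. Its log2 fold change was -1.68 ± 0.43 (edgeR, adjusted p = 0.244). Serpina1a (-1.54 ± 0.43) and Serpina1c (-1.41 ± 0.44) did not overlap either.

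The 5 copies can share reads. Of the 100-base windows in the longest transcript, 14.8% in Serpina1e, 19.2% in Serpina1b, 26.3% in Serpina1d, 47.4% in Serpina1a and 58.5% in Serpina1c occur word for word in another member, so the split between copies is uncertain. The summed family does not depend on that split. It was at 19.1, 15.1, 31.3 and 31.3 CPM in CD and 3.28, 5.03, 7.57 and 10.5 in HFD, a log2 ratio of the means of -1.88.

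**Figure D2:**
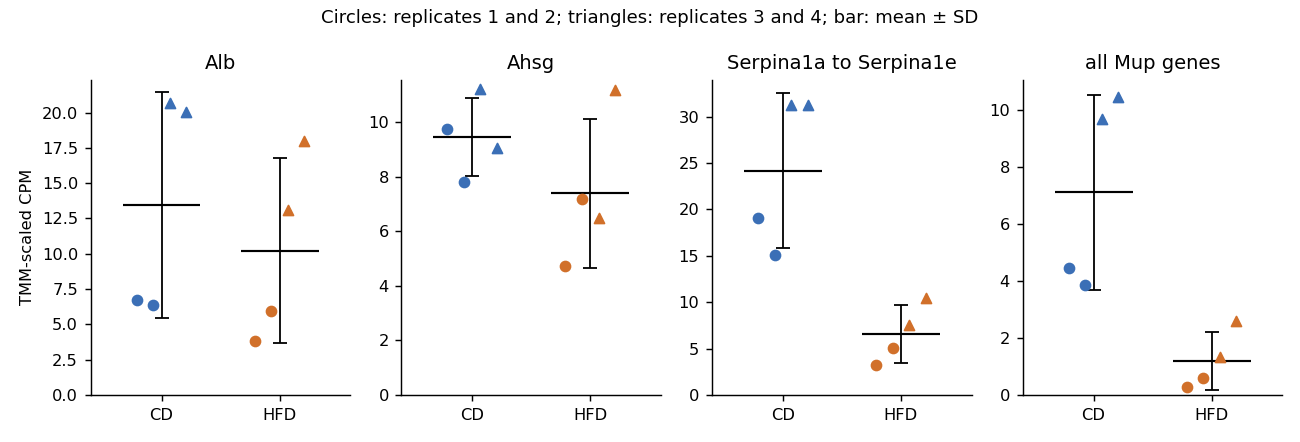
TMM-scaled CPM per library of Alb, of Ahsg, of the summed Serpina1a to Serpina1e and of the 12 summed Mup genes, with circles for replicates 1 and 2, triangles for replicates 3 and 4 and bars for the mean ± SD of each diet (n = 4). Alb spans 6.36 to 20.7 CPM in CD and 3.85 to 18.01 in HFD with the triangles on top, whereas the Serpina1 sum is at 15.1 to 31.3 in CD and 3.28 to 10.5 in HFD.

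Serpina3k, a mouse serpin of the antichymotrypsin group, was at 9.01, 6.43, 14.2 and 12.4 CPM in CD and 4.15, 2.98, 2.25 and 3.80 in HFD. Its log2 fold change was -1.67 ± 0.33 (edgeR, adjusted p = 0.219), and its locus overlaps Serpina3m. Ambp, the precursor of alpha-1-microglobulin and bikunin, was at 3.28, 3.81, 4.12 and 4.29 CPM in CD and 1.75, 0.937, 0.546 and 0.914 in HFD. The groups of both genes stood apart in TMM-scaled CPM, and Ambp had a log2 fold change of -1.89 ± 0.39 (edgeR, adjusted p = 0.219). Kng1, kininogen, from which bradykinin is cut, was at 4.09, 4.59, 5.61 and 3.53 CPM in CD and 2.77, 1.82, 1.45 and 1.94 in HFD. For Kng1 the log2 fold change was -1.16 ± 0.31 (edgeR, adjusted p = 0.250). By library size and by FPKM the diets overlapped for Serpina3k, Ambp and Kng1. In FPKM, HFD replicate 1 was at 3.50 for Serpina3k (CD 2.93 to 4.27) and 2.15 for Ambp (CD 1.80 to 2.54). For Kng1 it was at 1.47, against 0.698 to 1.31 in CD.

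The inter-alpha-trypsin inhibitor heavy chains were uneven. Itih4, an acute-phase member of the group, was at 1.23, 1.51, 1.92 and 2.47 CPM in CD and 0.105, 0.119, 0.783 and 0.111 in HFD. All HFD libraries were lower, replicate 3 lay far above the other 3, and the log2 fold change was -2.69 ± 0.75 (edgeR, adjusted p = 0.259). Itih3 (-0.99 ± 0.42) did not overlap, and Itih1 (0.50 ± 1.13), at most 0.443 CPM in any library, did. Ahsg, fetuin-A, an inhibitor of calcification, was at 9.76, 7.78, 11.2 and 9.06 CPM in CD and 4.72, 7.17, 6.48 and 11.2 in HFD. HFD replicate 4 was about as high as the highest CD library, and the log2 fold change was -0.36 ± 0.30 (edgeR, adjusted p = 0.617).

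**Figure D3:**
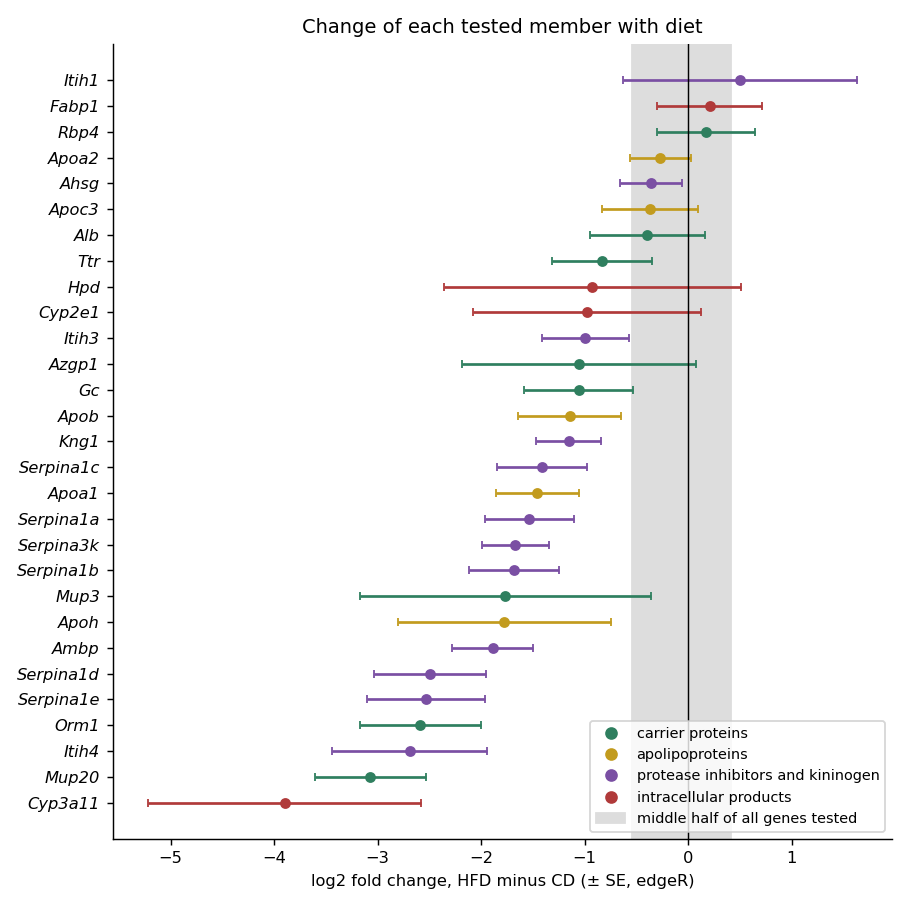
Log2 fold change, HFD minus CD, of the 29 tested members with edgeR, with bars for ± 1 SE, colours for the role and the members ordered by value. The grey band spans the quartiles of all genes tested, -0.54 to 0.41; 26 members lie below 0, and Rbp4, Itih1 and Fabp1 lie above it with an SE wider than their distance from 0.

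The 6 intracellular members were scarce. Fabp1 was at 1.56, 0.979, 1.56 and 0.582 CPM in CD and 0.664, 1.01, 2.18 and 1.58 in HFD. The diets overlapped, with the highest value in HFD, and the log2 fold change was 0.21 ± 0.51 (edgeR, adjusted p = 0.890). Cyp2e1, a cytochrome P450 that oxidises ethanol, was at 0.624, 0, 0.697 and 0.582 CPM in CD and 0.295, 0.0893, 0.214 and 0.360 in HFD. CD replicate 2, at 0, was below all HFD libraries, and the log2 fold change was -0.98 ± 1.10. Hpd, an enzyme of tyrosine breakdown, was at 0.147, 0, 0.763 and 1.02 CPM in CD and 0, 0.312, 0.498 and 0.194 in HFD, which overlapped (-0.93 ± 1.43). Its locus overlaps Psmd9.

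Cyp3a11 was the 1 intracellular member whose diets did not overlap. It had 30, 19, 40 and 45 counts in CD and 0, 0, 9 and 2 in HFD, and the log2 fold change was -3.90 ± 1.32 (edgeR, adjusted p = 0.295). With so few HFD counts this value is unstable, at -5.90 without HFD replicate 3 and -7.91 within replicates 1 and 2. Cyp2c29, another drug-metabolising P450, did not pass the filter. Its 23 counts were all in CD replicates 3 and 4, and against 3 counts over the HFD group, where all libraries had 0, it was at least 10.8-fold lower in HFD. The bound was 4.49-fold without CD replicate 4, which held 15 of the counts, and CD replicates 1 and 2 were at 0 like the HFD libraries. Tat, tyrosine aminotransferase, did not pass either, with 4 counts in CD replicate 3 and 9 and 5 in HFD replicates 2 and 3.

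In CD replicates 3 and 4 the genes of normally silent families were also higher: their mean was 0.0576 and 0.0612 FPKM per gene there, against 0.00563 to 0.0123 in the other libraries. In those 2 libraries Cyp2c29 was at 0.0519 and 0.110 FPKM and Cyp3a11 at 0.155 and 0.202. The part of such scattered reads in the scarce members was not tested.

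Set against each other as classes, secreted transcripts were lower in HFD libraries without overlap and intracellular ones overlapped. The 25 secreted members summed to 103, 94.2, 156 and 150 CPM in CD and 40.6, 51.9, 57.5 and 85.9 in HFD. The 6 intracellular members summed to 2.88, 1.31, 4.75 and 4.37 CPM in CD and 0.959, 1.55, 3.23 and 2.19 in HFD. Fabp1 alone held 85, 57, 47 and 16 of their 157, 76, 143 and 120 counts in CD. In HFD it held 63, 68, 92 and 57 of 91, 104, 136 and 79, so the intracellular sum leans on 1 gene. The median log2 fold change was -1.41 over the 25 secreted and -0.95 over the 4 intracellular members tested. With the Serpina1 copies summed as 1 gene the secreted median was -1.14. No test was made of the difference between the classes, whose depth differed widely: 2422 to 5607 counts per library for the secreted and 76 to 157 for the intracellular members.

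As a share of all member reads, the intracellular class was at 2.72% (Wilson 95% interval 2.33% to 3.18%), 1.37% (1.09% to 1.71%), 2.95% (2.51% to 3.47%) and 2.84% (2.38% to 3.38%) in CD. It was at 2.31% (1.88% to 2.82%), 2.89% (2.39% to 3.49%), 5.32% (4.51% to 6.26%) and 2.49% (2.00% to 3.09%) in HFD. CD replicate 2 was the lowest and HFD replicate 3 the highest, and the other 6 libraries lay within 2.31% to 2.95%. Fabp1 held 92 of the 136 intracellular counts in HFD replicate 3 and 57 of 76 in CD replicate 2. The intervals cover counting error only.

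**Figure D4:**
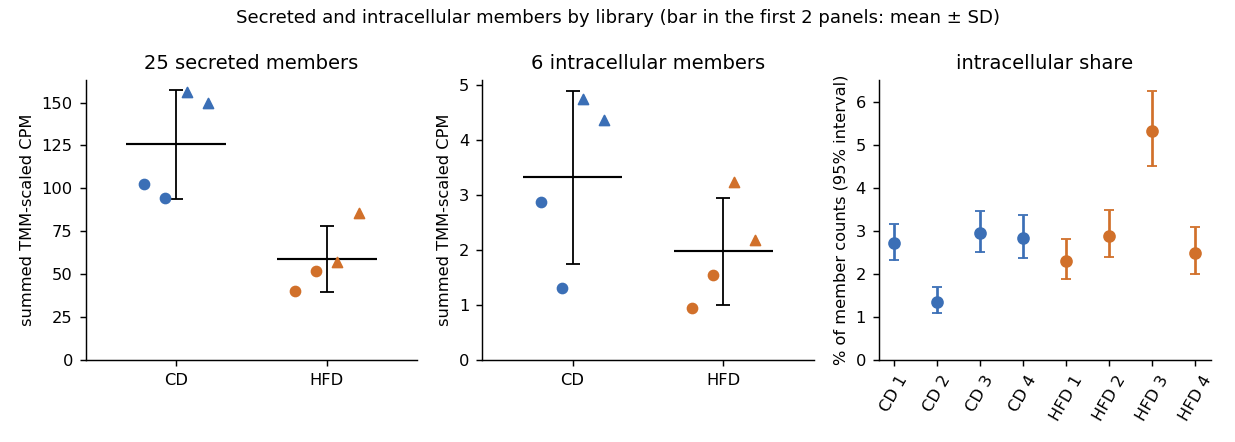
Summed TMM-scaled CPM per library of the 25 secreted and of the 6 intracellular members, with circles for replicates 1 and 2, triangles for replicates 3 and 4 and bars for the mean ± SD of each diet (n = 4), and on the right the intracellular share of member reads in each library with its Wilson 95% interval. The secreted sum is at 94.2 to 156 CPM in CD and 40.6 to 85.9 in HFD, and the share overlaps between the diets.

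Because Alb followed the replicate number, the other members were also set against it within each library, a ratio that no scaling between libraries can move. For 8 of 28 members every HFD ratio to Alb reads lay below every CD ratio, against 2.46% of all genes, and for 0 members above (0.835%). These 8 were Orm1, Mup20, Serpina1b, Serpina1c, Serpina1d, Serpina1e, Itih4 and Cyp3a11. Per 100 Alb reads there were 71.5, 59.2, 51.4 and 59.3 reads of Serpina1e in CD and 11.5, 14.8, 14.8 and 12 in HFD. For Mup20 there were 52.7, 56.2, 31.8 and 34.1 in CD and 7.40, 9.80, 2.53 and 7.08 in HFD. These 2 members were therefore lower relative to albumin as well as in CPM. Ahsg was not divided by the replicate number in CPM, and its ratio carried the division of Alb, at 144.6, 122.4, 54.3 and 45.2 reads per 100 Alb reads in CD and 122.7, 121.1, 49.4 and 62.0 in HFD.

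In TMM-scaled CPM the division of the replicate numbers was seen in other members too. Of the 29 tested members, CD replicates 3 and 4 were both above CD replicates 1 and 2 in 18, against 35.1% of all genes tested. The same held in HFD for 12 members (27.1%) and in both diets for 9 (13.2%). These counts depend on the scaling, since TMM factors were 1.06, 1.12, 0.690 and 0.742 in CD replicates 1 to 4. In HFD they were 2.02, 1.21, 0.937 and 0.719. As a share of counted reads the members together were at 0.0112%, 0.0107%, 0.0111% and 0.0114% in CD replicates 1 to 4. The division was not counted in other scales. Within replicates 1 and 2 and within replicates 3 and 4, both HFD libraries were below both CD libraries in 19 tested members, against 10.4% of all genes. With a term for the division, edgeR called 8 members lower and 0 higher, against 1.02% and 1.03% of all genes. They were Orm1 (adjusted p = 0.0384), Mup20 (0.0265), Serpina1b (0.0271), Serpina1d (0.0441), Serpina1e (0.0140), Serpina3k (0.0384), Ambp (0.0384) and Itih4 (0.0485). Without CD replicates 3 and 4 edgeR called 0 members, with 10 lower and 0 higher before adjustment at 0.05, against 2.58% and 2.92% of all genes. The secreted median was then -1.06, the intracellular median -0.15, and the log2 fold change of Alb 0.62. Within replicates 3 and 4 alone edgeR called 10 members lower, but there it also called 16.5% of all genes lower and 11.5% higher. Without the filter on low counts it called 5 members lower, against 0.694% of all genes lower and 0.279% higher.

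With the replicate number as a block edgeR called 0 members, and before adjustment 17 were lower at 0.05 (7.81% of all genes lower, 7.31% higher). Within replicates 1 and 2 alone it called 0 as well, and 17 were lower before adjustment (5.48% lower, 6.61% higher). Scaled by library size alone, which moved the median of all genes by 0.41, 0 members were called and 11 were lower before adjustment (3.56% lower, 6.24% higher). In that scaling 9 members had all HFD libraries below all CD libraries, against 2.56% of all genes, and 0 had them above (3.08%). The 9 were Orm1, Mup20, Apoa1, Serpina1b, Serpina1c, Serpina1d, Serpina1e, Itih4 and Cyp3a11. Serpina1a, Serpina3k, Ambp, Itih3 and Kng1, which did not overlap in TMM-scaled CPM, overlapped by library size and by FPKM.

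Other hepatocyte genes outside the 31 were mixed in both classes, and the cells that their reads came from were not tested. Of 41 other secreted products 31 were tested, and their median log2 fold change was -1.35. With an edgeR p under 0.05 before adjustment 12 were lower and 3 higher, against 7.56% and 5.31% of all genes. Of the 31, 9 were above 0. The median of -1.35 was near the -1.41 of the secreted members. The 41 genes summed to overlapping levels, 1303 to 2094 CPM in CD and 844 to 3054 in HFD. The means were 1740 and 1721. Hpx (hemopexin, which binds heme) had -2.01 ± 0.25 and Fgb (fibrinogen beta chain) -2.57 ± 0.37. Vtn (vitronectin) had -2.16 ± 0.33 and Apoc4 1.65 ± 0.26. A sum follows its most abundant genes, which are not given here, and whether macrophages express them was not tested. It therefore cannot be compared with the sum of the secreted members. Hpx, Fgb, Vtn and Apoc4 were a small part of the sum of the 41, at most 17.6, 22.9, 4.09 and 10.4 CPM in any library. Of 43 other intracellular and membrane products 22 were tested, with 3 lower and 2 higher at that p (the same shares of all genes apply) and a median of -0.59. Ass1, argininosuccinate synthase of the urea cycle, which macrophages also express, fell from 24.2 ± 1.24 to 5.68 ± 0.541 CPM (SD, n = 4 each; log2 fold change -2.09 ± 0.21, edgeR, adjusted p = 0.0268). With the replicate number as a block its adjusted p in edgeR was 0.133. The edgeR call was also lost with library-size scaling and when any 1 library other than CD replicate 1 was left out. Glul (glutamine synthetase) had 1.77 ± 0.40, at 118 to 177 CPM in CD and 265 to 720 in HFD. The highest value of any member was 20.7 CPM, for Alb. Dpys (dihydropyrimidinase) had -1.59 ± 0.42 and Cyp27a1 (sterol 27-hydroxylase) 1.302 ± 0.476. None of Glul, Dpys and Cyp27a1 passed the threshold.

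Markers of other cells also differed between the libraries. The neutrophil list, with 8 of 12 genes lower and 1 higher in HFD at an unadjusted edgeR p under 0.05, was highest in CD replicates 3 and 4 as given above. Of all genes 7.56% were lower and 5.31% higher at that p, which also applies to the counts below. The 7 erythroid genes summed to 1665 to 19166 CPM in CD and 274 to 7055 in HFD, with 1 of 7 lower. The 9 T cell genes summed to 12.5 to 15.9 CPM in CD and 3.09 to 12.4 in HFD, with 3 of 9 lower. The 10 cholangiocyte and carcinoma epithelium genes, of which 9 were tested, summed to 2506 to 10626 CPM in CD and 374 to 5515 in HFD, with 3 of 9 lower and 0 higher. The 11 sinusoidal endothelium genes were at 185 to 251 CPM in CD and 158 to 490 in HFD, with 3 lower and 1 higher. The 10 stellate cell and fibroblast genes followed the replicate number, at 293, 278, 56.1 and 52.0 CPM in CD and 685, 682, 209.6 and 147 in HFD. Of these, 2 were lower and 1 higher. The 6 B cell genes were at 7.43 to 13.8 CPM in CD and 12.9 to 20.7 in HFD, with 0 lower and 1 higher. The 12 Kupffer cell genes went the other way, at 194 to 311 CPM in CD and 349 to 671 in HFD, with 6 of 12 higher. No gene of these lists was at 0 in all libraries, and their part in the values of the hepatocyte genes was not tested.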

How the data were processed

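The deposited table holds, for 42649 genes and 8 libraries, whole-number read counts that the authors had not normalised and FPKM values that the authors computed. Upstream tools, per the submitters' processing notes, were cutadapt 1.9, HISAT2 2.0.4 and StringTie 1.3.4d. Genome build and settings were not given in the sources used here. Per the labels' protocols, cDNA was primed with oligo(dT), amplified by PCR and fragmented, with no molecular identifiers and no strand marking. Reads from bases that overlapping or antisense genes share therefore cannot be assigned by strand. Overlap of loci was checked on gene spans and not on exons. All 31 members were found by identifier in GENCODE M21 (GRCm38).

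Counts were tested with edgeR 4.0.16 in R 4.3.3 (two-sided quasi-likelihood test of diet alone, with TMM scaling, after filterByExpr), with Benjamini-Hochberg adjustment over 17367 genes and a threshold of 0.05. Levels are TMM-scaled CPM, with mean ± SD over 4 libraries per diet. TMM factors were 0.690 to 1.12 in CD and 0.719 to 2.02 in HFD, the highest in HFD replicate 1. Totals were 37180157 to 55717378 counts. A group at 0 was set against 3 counts over the group. Such floors cover counting error only. The fits were tested on simulated counts. The design text gives 4 mice per diet.

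Values in every library are given for the 10 members of smallest p and for the secreted and intracellular members of highest FPKM, and of each other list up to 4 genes are named. The members and gene lists were chosen with earlier results of these data known. Replicate numbers were checked for pairing: deviations of same-numbered libraries from their diet means correlated at 0.110, 0.292, 0.220 and 0.183 across genes, different numbers within 1 and 2 or within 3 and 4 at 0.160 to 0.318, and the rest negatively. They were treated as pairs in an alternative fit. Other alternatives were library-size scaling, DESeq2 1.42.0, no filter, a mean FPKM of at least 1, limma 3.58.1 on log2(FPKM + 0.1) and log2(FPKM + 1), the division of replicate numbers, and leaving out libraries. Promoters were matched by symbol (25 of 31 members) in RefSeq tables of GRCm38.p6. Protein sequences were not analysed here. Some items are not reported here.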

Additional observations from a re-analysis of the deposited data

Results flagged for a closer look

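In 3 of 36 groups of 4 libraries, 1 library lay far from the other 3 of its diet by Dixon's ratio, which chance gives in about 1 in 20 groups. Serpina1d was at 1.383 CPM in CD replicate 4 and at 2.655 to 2.784 in the other CD libraries. Itih4 was at 0.7831 CPM in HFD replicate 3 and at 0.1054 to 0.119 in the other HFD libraries. Cyp2e1 was at 0 in CD replicate 2 and at 0.5822 to 0.697 CPM in the other CD libraries.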

How the results depend on the processing

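With library-size scaling 0 genes were called lower, with limma on log2(FPKM + 0.1) 4 lower and 1 higher, on log2(FPKM + 1) 0 lower, at mean FPKM of at least 1 2 lower, with the replicate block 0, within replicate numbers 1 and 2 0, and without CD replicates 3 and 4 0. DESeq2 called 496 lower and 143 higher, no filter 296 and 119, the division term 177 and 179, and replicate numbers 3 and 4 alone 3310 and 2314. Members called lower were 12, 5, 8 and 10 in those 4. With the block 0 members were called and 17 were lower at an unadjusted p under 0.05; for genes at mean FPKM of 1 or more 9 were.

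The median of all genes was 0.01 in the main fit and 0.42 by library size. On log2(FPKM + 0.1) and log2(FPKM + 1) it was 0.30 and 0.14, so part of the moves below is a shift of all genes. The secreted median moved to -0.44 on log2(FPKM + 1). The intracellular median was -0.48 by library size, -0.21 and -0.053 by FPKM with 0.1 and 1 added, 0.12 at mean FPKM of at least 1 (Fabp1 alone) and -0.15 without CD replicates 3 and 4. For other secreted products it was -0.96, -0.70, -0.15 and -2.04 in the first 4 of these, -1.10 within 1 and 2, -1.63 within 3 and 4 and -0.89 without CD replicates 3 and 4. For other intracellular products it was -0.18 on log2(FPKM + 0.1), -0.061 on log2(FPKM + 1), 0.091 at mean FPKM of at least 1, -1.05 with no filter, where the median of all genes was -1.01, and 0.53 without CD replicates 3 and 4.

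Leaving out 1 library gave 0 to 1 genes called lower, 0 members called, 13 to 14 members at an unadjusted p under 0.05, and medians of -1.70 to -1.16 (secreted), -1.34 to -0.55 (intracellular), -1.76 to -1.21 (other secreted) and -0.95 to -0.28 (other intracellular).

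Of the values of single members under these settings, 14 changed sign, 35 newly passed the threshold and 487 did neither. Apoa2 was 0.035 by library size, 0.072 and 0.067 on log2(FPKM + 0.1) and log2(FPKM + 1) and 0.21 within 3 and 4. In the first 3 of these settings the median of all genes itself shifted by 0.41, 0.29 and 0.13, so Apoa2 stayed below it. Rbp4 was -0.071 with the block, -0.65 within 3 and 4, and -0.42 to 0.45 with 1 library left out, negative without HFD replicate 1. Fabp1 was -0.60 within 1 and 2, and -0.092 to 0.44 with 1 library left out, negative without CD replicate 4 (-0.0031) and HFD replicate 3. Apoc3 was 0.082 within 3 and 4, and Itih1 -0.025 to 1.47 with 1 library left out, negative without HFD replicate 4. Without CD replicates 3 and 4 Alb was 0.62 and Hpd 1.73. The causes were not tested. Depth limits the intracellular members most, with 76 to 157 counts per library in all. The leave-one-out bound for Cyp2c29 was chosen after seeing the data and ran from 4.49-fold to 16.4-fold.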
